A study of Mus musculus with 10 samples.

Results

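Nephron progenitors that had been kept in culture for 19 days were compared with the cells of the newborn mouse kidney that are not nephron progenitors, to find which stromal, vascular and nephron programs of that kidney the long culture carried and which it was without. The comparison holds 4 of the 10 arrays of the series, 2 of each group, and it was described across all genes. All mice carried a Six2-GFP transgene on a C57BL6J and ICR background, so that green fluorescence marked cells in which the promoter of Six2, a transcription factor of nephron progenitors, was active. The 19-day culture was started from GFP-positive cells sorted at E11.5 and grown in conditioned medium, and it shares this origin with the 8-day culture (2 arrays). P0 non-progenitors are the GFP-negative fraction sorted from the kidney at birth, and the P0 progenitors (2 arrays) were the GFP-positive cells of that stage. The E11.5 progenitors (2 arrays) were sorted and not cultured. It is not stated in the labels if cells were sorted a second time after culture, or if the 2 arrays of a group came from separate litters or cultures, so p-values measure only the spread between these samples, which may be technical.

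The developing kidney has 3 main compartments. Progenitors of the cap mesenchyme form nephrons by a mesenchymal-to-epithelial transition, in which the renal vesicle gives rise to podocytes, proximal tubule, loop of Henle and distal tubule. The ureteric bud forms the collecting ducts. Stroma that descends from Foxd1-positive cells gives rise to interstitial fibroblasts, pericytes, mesangium, vascular smooth muscle and renin cells, and an endothelium lines the vessels and glomerular capillaries. A GFP-negative sort at birth therefore mixes epithelium, stroma, vessels and blood, whereas a culture of Six2-GFP-positive cells starts from cells sorted on 1 marker.

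RNA was hybridised to one-colour Agilent arrays. Between 60.4% and 69.8% of the 59305 spots of an array were well above background, and none was saturated. Levels are log2 intensities minus the 75th percentile of the same array, so 0 is that percentile and 1 unit is a doubling. They can be set against each other across arrays for 1 gene, not between genes. Differences are given as 19-day culture minus P0 non-progenitors with the standard error (SE) of the fit, n = 2 arrays a group, and a gene was called at a Benjamini-Hochberg adjusted p of at most 0.05 from limma. Where a gene had no probe well above background on either array of 1 group, the fold is a lower bound and is written "at least". In this comparison, fell and rose mean lower and higher than in the P0 non-progenitors, not a change during culture. A change from the E11.5 progenitors is named as such. The precision is limited by the number of arrays. All 6 freshly sorted arrays lay on 1 slide with 1 of the 8-day arrays, and both 19-day arrays lay on the other slide with the other 8-day array. No slide held both groups compared here, and only the 8-day pair linked the slides, so values with the slide as a term in the fit are given beside the main results.

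Of 26250 genes tested, 2468 (9.4%) were called, 1155 (4.4%) higher and 1313 (5%) lower in the 19-day culture. The count depended on each array: it was 1023 without P0 non-progenitors replicate 1, 1008 without P0 non-progenitors replicate 2, 1234 without 19-day culture replicate 1 and 1708 without 19-day culture replicate 2. With the slide as a term, 547 genes were called, 218 higher and 329 lower. The root mean square difference over genes was 1.59 log2 units between arrays of the 2 groups (range 1.55 to 1.63), against 0.967 between the 19-day arrays and 0.903 between the P0 non-progenitor arrays. From 8 to 19 days of culture, 703 genes (2.68%) were called higher and 1421 (5.41%) lower. The median difference over all genes was 0.21 log2 units, and it is the level against which the list medians below should be read. The lists were chosen with earlier results of these data known, so their shares and medians are descriptive and test nothing. Most genes were measured in both: 22045 (84%) were well above background on all 4 arrays. A further 678 (2.58%) were above background on both P0 non-progenitor arrays and neither 19-day array, and 749 (2.85%) showed the reverse.

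**Figure D1:**
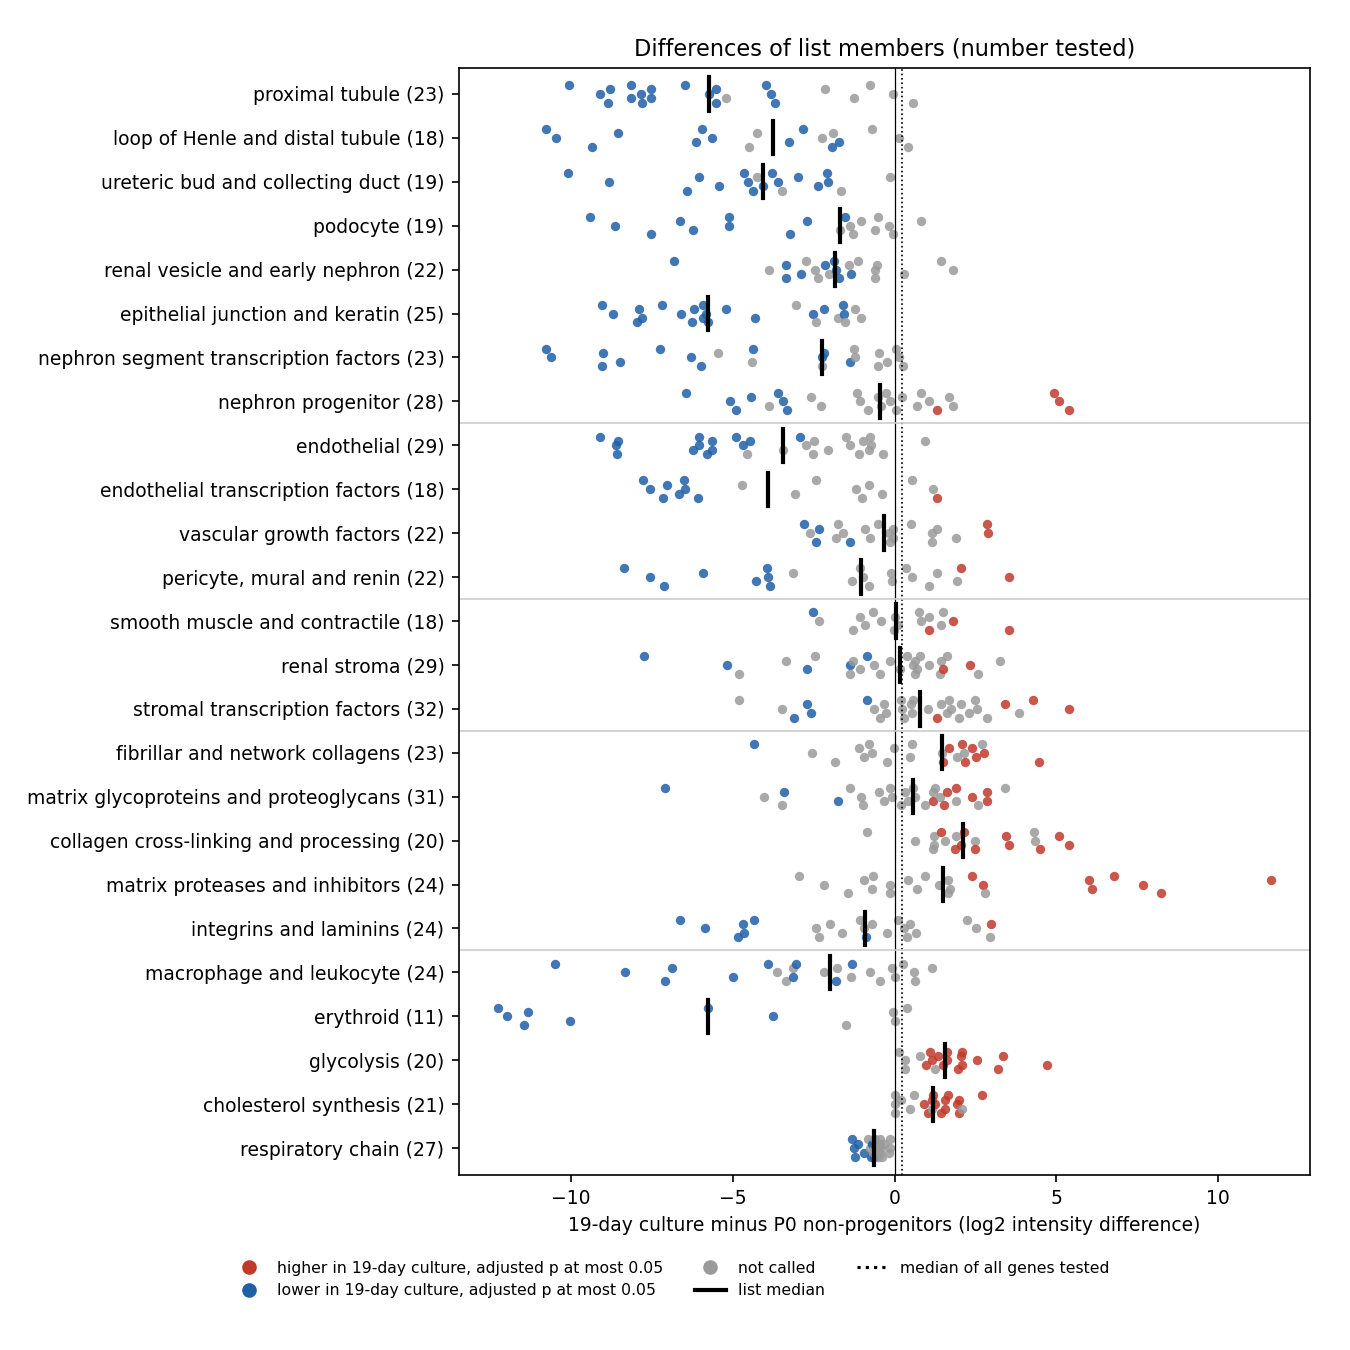
Difference in log2 level, 19-day culture minus P0 non-progenitors, for each tested member of 25 gene lists (points) with the median of each list (bar); the dotted line is the median of all genes tested, 0.21. Nephron, endothelial and blood lists lie mostly to the left, collagen processing, glycolysis and cholesterol synthesis to the right, and the smooth muscle and renal stroma medians, 0.04 and 0.16, near the line.

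The labels were first checked against 2 progenitor genes. Six2 was measured at 1.06 and 2.32 in the 19-day culture and at -2.26 and -4.54 in the P0 non-progenitors, where a probe was above background on 1 of the 2 arrays, a difference of 5.09 ± 0.71 (SE, n = 2; adjusted p = 0.00561). The GFP-negative sort was therefore low in Six2, and both 19-day arrays lay above it, though below the 4.7 and 4.82 of the E11.5 progenitors and the 5.21 and 4.61 of the 8-day culture. Cited1, another gene of the uncommitted cap mesenchyme, lay at 0.60 and -0.48 in the 19-day culture and at 1.33 and 0.45 in the P0 non-progenitors, with overlapping ranges (adjusted p = 0.363), and below its 3.0 and 3.64 in E11.5 progenitors.

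Markers of nephron epithelium were low in the 19-day culture. In the list of proximal tubule markers, 17 of 23 tested members (73.9%) were lower than in the P0 non-progenitors and none was higher, against 5% of all genes called lower. The median difference of the list was -5.73, or -5.44 with undetected genes at their bound, and 8 members were above background only in the P0 non-progenitors. With only probes above background on all arrays (the strict filter), which leaves such members out, the median was -1.699. The size of the median thus depended on members admitted through the group where they were high. In bulk samples, fewer cells of a type and less RNA per cell cannot be told apart. Leaving out 1 array left 14 to 17 calls, and the fit with the slide left 11. Against the E11.5 progenitors, 1 member of the list was lower in the 19-day culture and none higher, with a median difference of 0.073. Slc34a1, the phosphate transporter of the brush border (probe on chromosome 13, 55515201 to 55515259, mm9), was measured at -3.65 and -3.21 in the 19-day culture and at 4.22 and 4.53 in the P0 non-progenitors. The groups stood far apart, with a difference of -7.81 ± 0.87 (SE, n = 2), or 224-fold (adjusted p = 0.00227). Slc27a2, which transports and activates fatty acids, lay at -3.82 and -4.32 against 3.34 and 3.6, and was 186-fold lower (adjusted p = 9.85e-05). The organic anion transporter Slc22a6, named after its values were seen, lay at -2.08 and -2.02 against 3.2 and 3.72 (difference -5.51 ± 0.42, adjusted p = 0.000511). Lrp2, which encodes the endocytic receptor megalin, was not well above background on either 19-day array, at -5.14 and -5.16 against 4.16 and 3.76, and was at least 417-fold lower (adjusted p = 0.00155, or 0.0639 with the slide). The secreted phosphoprotein gene Spp2 (at least 709.8-fold lower) and the glutamyltransferase gene Ggt1 (at least 187-fold) fell in the same way.

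Not every gene of the proximal tubule list passed. Dab2, an endocytic adaptor that partners with megalin and is expressed in many other cells, was measured at 2.83 and 2.94 in culture and at 5.17 and 4.92 in the P0 non-progenitors (adjusted p = 0.21). Ass1, of arginine synthesis, lay at 1.0 and 0.61 against 1.03 and 2.1 (adjusted p = 0.34). Slc5a12, a lactate transporter, was scattered in culture, at -5.88 and -0.59 against 1.83 and 2.11 (adjusted p = 0.0704). The water channel gene Aqp1 showed the same scatter, at -6.74 and -1.12 against 4.21 and 4.23. Each was above background on 1 of the 2 19-day arrays with the probe used. Aqp1 was called (adjusted p = 0.0168), but not without either P0 non-progenitor array (adjusted p up to 0.0898). Cubn, for the receptor cubilin and named after its values were seen, was not called if either P0 non-progenitor array or 19-day culture replicate 1 was left out (adjusted p up to 0.176).

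Of 18 members of the list for the loop of Henle and the distal tubule, 11 (61.1%) fell and none rose. The median was -3.76 (-2.73 with bounds, and -1.737 under the strict filter). Leaving out 1 array left 7 to 9 of these calls, and the fit with the slide left 4. Against the E11.5 progenitors, 1 member was higher in the 19-day culture and none lower, with a median difference of 0.035. Umod, which encodes uromodulin of the thick ascending limb, was at -6.43 and -5.93 in the 19-day culture, below background, and at 4.03 and 4.55 in the P0 non-progenitors. It was at least 525-fold lower in the culture (adjusted p = 0.000136). The calcium-binding protein gene S100g was at least 991-fold lower, Slc12a1, the sodium-potassium-chloride cotransporter of that limb, at least 221-fold, and the tight junction gene Cldn16 at least 42.6-fold. Fxyd2, a regulatory subunit of the sodium pump, was measured in both groups, at -0.61 and -3.91 against 6.24 and 6.35 (adjusted p = 0.00187, or 0.0784 with the slide).

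In the ureteric bud and collecting duct list, 15 of 19 members (78.9%) fell and none rose, with a median of -4.06 (-3.6 with bounds). The range was 11 to 12 with 1 array left out, and 4 with the slide as a term. Aqp3, a water channel of the principal cell, lay at -2.75 and -3.03 in culture and at 3.8 and 3.26 in the P0 non-progenitors, 85.8-fold lower (adjusted p = 0.000136). The sodium channel subunit gene Scnn1g was at least 127-fold lower, the membrane protein gene Mal at least 299-fold, and Gfra1, the co-receptor through which the bud receives the GDNF signal, at least 22.6-fold. The culture had been started from the mesenchymal side, and bud markers were likewise low in E11.5 progenitors, where the median level of the list was -3.96 and -3.74 on the 2 arrays, against -4.28 and -4.4 in the 19-day culture and -0.34 and -0.46 in the P0 non-progenitors.

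**Figure D2:**
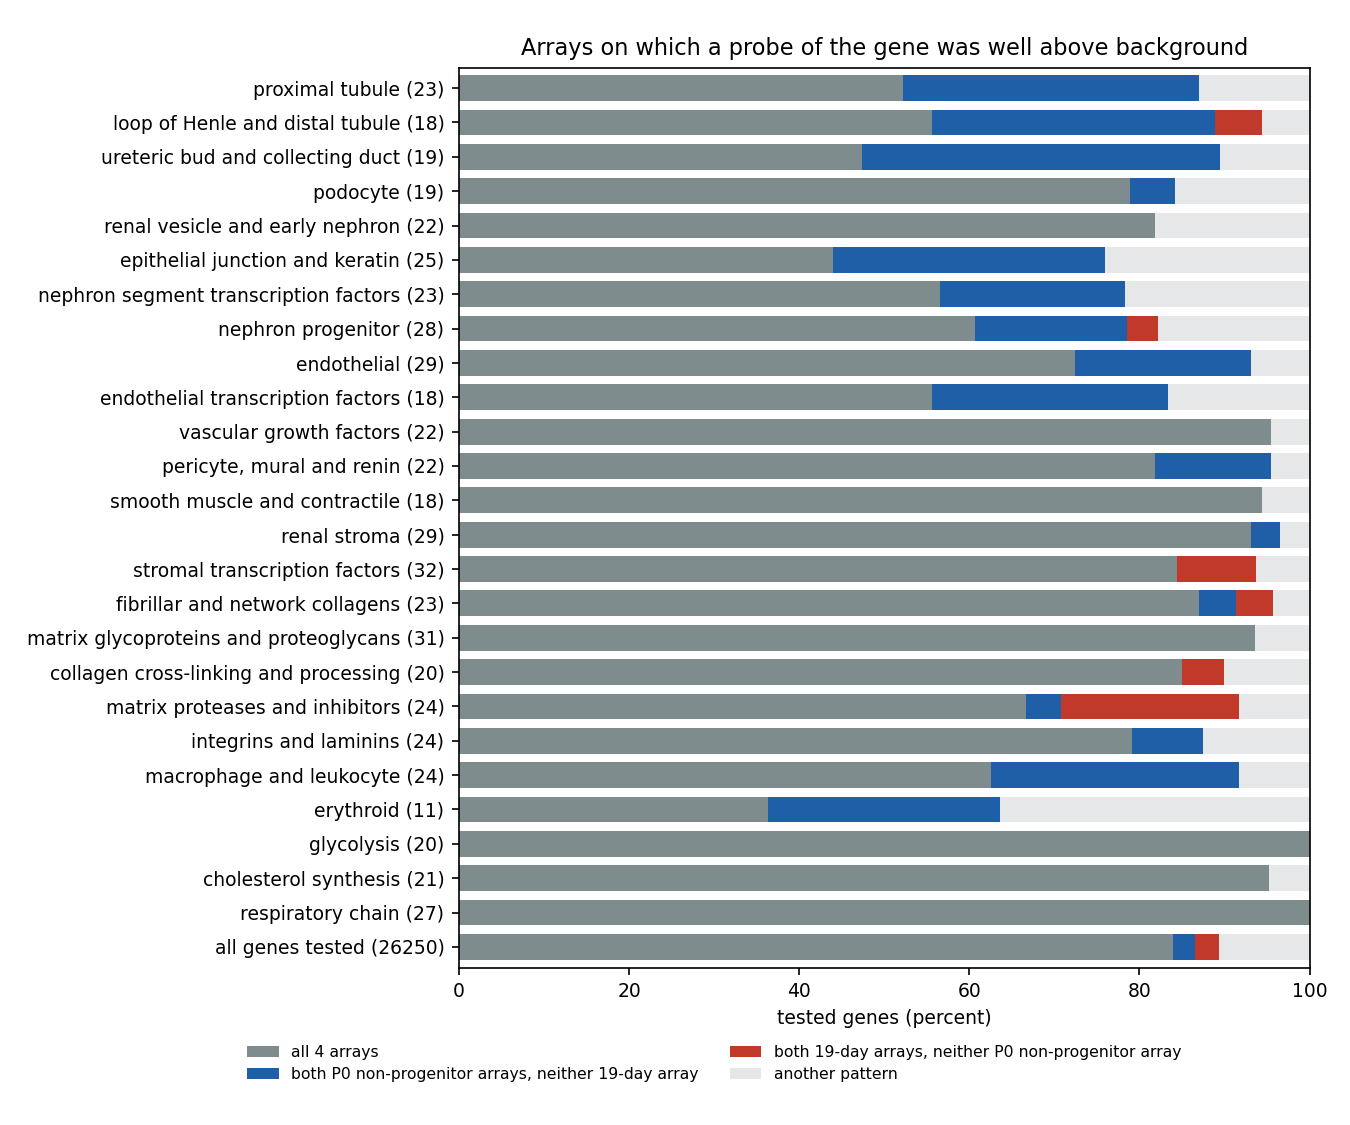
Percent of the tested members of each list that were well above background on all 4 arrays, on both P0 non-progenitor arrays and neither 19-day array, the reverse, or in another pattern, with all genes tested for comparison. In the proximal tubule, bud and junction lists 8 members each were above background in the P0 non-progenitors only, and 5 members of the matrix protease list in the 19-day culture only.

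Podocyte genes were divided. Of 19 members, 10 (52.6%) fell and none rose, with a median of -1.7, 8 to 10 with 1 array left out and 7 with the slide. Podxl, for the surface sialomucin podocalyxin, was measured at -6.78 and -6.84 in the 19-day culture, below background, and at 1.65 and 2.02 in the P0 non-progenitors, at least 95.5-fold lower (adjusted p = 6.37e-05). Npnt, for the basement membrane protein nephronectin, was lower, at -3.92 and -5.68, above background on 1 of 2 arrays, against 4.73 and 4.49 (adjusted p = 0.00139). Other podocyte genes did not pass. Wt1, a transcription factor of progenitors and podocytes, was at 4.03 and 4.06 against 4.31 and 4.78 (difference -0.50 ± 0.24, adjusted p = 0.233). Synpo, for the actin-associated protein synaptopodin, was at 1.13 and 0.46 against 1.39 and 1.39 (adjusted p = 0.512). Both 19-day Synpo values lay above the -4.03 and -5.45 of the E11.5 progenitors (difference 5.53, adjusted p = 0.00085) and above the -1.15 and -1.7 of the 8-day culture. Nphs1, which encodes nephrin, did not pass either (adjusted p = 0.0712).

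Genes of epithelial junctions and keratins were low in the 19-day culture, as were those of the segments. Of 25 members, 19 (76%) fell and none rose, and the median was -5.79 (-4.14 with bounds, and -1.767 under the strict filter). Leaving out 1 array left 12 to 17, and the fit with the slide left 7. Against the E11.5 progenitors, 1 member was lower in the 19-day culture and none higher, with a median difference of -0.14. Cdh16, the kidney-specific cadherin, was measured at -2.82 and -2.88 in the 19-day culture and at 4.49 and 4.21 in the P0 non-progenitors, a 147-fold fall (difference -7.2 ± 0.27, adjusted p = 6.37e-05, or 0.0064 with the slide). Cdh16 in the 19-day culture differed by 0.30 from the E11.5 progenitors (adjusted p = 0.5), and no change from the start of the culture was detected. The claudin gene Cldn8 was at least 94.1-fold lower, the membrane protease gene St14 at least 59.4-fold and the keratin gene Krt8 at least 142-fold. Krt18 (-2.64 and -2.57 against 3.53 and 3.14, adjusted p = 0.00479) and Cdh1, for E-cadherin (at least 14.6-fold lower, adjusted p = 0.00294), were named after their values were seen. Epcam, above background on 1 of the 2 19-day arrays, fell (adjusted p = 0.00698) but not without P0 non-progenitors replicate 2 (0.0532). No member of this list was called higher in the 8-day culture than in the P0 non-progenitors either (7.65% of all genes were higher there and 5.53% lower), and 15 were lower. That comparison uses the same P0 non-progenitor arrays.

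Transcription factors that pattern the nephron were also lower. Of 23 tested members of the segment factor list, 12 (52.2%) fell and none rose, 9 to 10 with 1 array left out and 6 with the slide. The median was -2.26, but -0.361 under the strict filter. Hnf4a, required for proximal tubule identity, lay at -6.93 and -6.98, below background, against 2.13 and 1.98, and was at least 111-fold lower. Tfap2b, which acts in distal segments, was lower by at least 379-fold, and Esrrg, a regulator of mitochondrial genes, at least 79.8-fold. Emx2, a homeobox gene of the kidney primordium, was not called, at -0.76 and 0.50 against 0.34 and 0.46 (adjusted p = 0.782), although it had been below background at -6.2 and -5.89 in the E11.5 progenitors. In the list of the renal vesicle and early nephron, 9 of 22 members (40.9%) fell, with a median of -1.85. These calls were fragile: 2 to 5 were left with 1 array left out, and none with the slide as a term. Jag1, a Notch ligand of the forming tubule, was 10.4-fold lower (-0.91 and 0.50 against 3.11 and 3.23, adjusted p = 0.0063). Pax8, above background on 1 of the 2 19-day arrays, was lower at -6.87 and -3.86 against 1.24 and 1.67, but not called without either P0 non-progenitor array (adjusted p up to 0.0708). Wnt4, the signal that triggers epithelial conversion, was measured at 3.26 and 2.25 in the 19-day culture and at 1.31 and 1.37 in the P0 non-progenitors (adjusted p = 0.178).

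Progenitor genes moved in both directions. Of 28 members, 4 (14.3%) were higher and 7 (25%) lower in the 19-day culture. In the fits without 1 array, 3 were higher and 4 to 8 lower (4 without P0 non-progenitors replicate 2), and with the slide 2 and 5. Meox2, a homeobox gene of mesenchyme, was at 0.38 and 0.58 against -5.15 and -4.66, at least 41.8-fold higher (adjusted p = 0.000988), and its relative Meox1 was at least 33.0-fold lower. Bmp7, a ligand made by the cap mesenchyme, was at least 16.1-fold lower. Pax2, named after its values were seen, is needed for nephron and duct formation, and it was measured at -1.25 and -1.21 in the 19-day culture against 3.4 and 3.04 in the P0 non-progenitors and 4.56 and 4.21 in the E11.5 progenitors. It was 21.9-fold lower than in the P0 non-progenitors (difference -4.46 ± 0.23, adjusted p = 0.000114, or 0.00804 with the slide).

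Endothelial genes were low in the 19-day culture. Of 29 endothelial members, 14 (48.3%) fell and none rose, with a median of -3.46 (-1.297 under the strict filter). The count was 12 to 14 with 1 array left out and 10 with the slide as a term. Pecam1, a junctional adhesion molecule of all endothelium (chromosome 11, 106540864 to 106540923, mm9; named after its values were seen), was measured at -3.14 and -2.97 in the 19-day culture and at 1.83 and 1.47 in the P0 non-progenitors (difference -4.7 ± 0.38, adjusted p = 0.000563). It lay between -3.69 and -2.89 in all 4 progenitor arrays and at -3.95 and -3.64 in the 8-day culture, so the P0 non-progenitors alone were high. Cdh5, which encodes VE-cadherin, was at -6.65 and -5.35, below background, against 3.43 and 2.81, at least 233-fold lower (adjusted p = 0.000329). Cd93, a lectin-like endothelial receptor, was 383-fold lower, at -4.36 and -3.13 against 5.17 and 4.5 (adjusted p = 0.000509). The receptor genes Tie1 and Ptprb were at least 81.3-fold and at least 129.6-fold lower. Regulators of endothelium were lower too: 8 of 18 endothelial transcription factors (44.4%) were lower and 1 (5.56%) higher, among them Sox17 (at least 54.5-fold), Sox18 (at least 43.6-fold) and Erg (at least 24.9-fold). With the slide as a term 3 of these factors were still called lower.

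A few genes known from endothelium were measured at substantial levels in culture. Fabp4, a fatty acid binding protein of capillary endothelium and fat cells, was at 2.12 and 3.95 in the 19-day culture and at 5.53 and 5.5 in the P0 non-progenitors (difference -2.48 ± 1.16, adjusted p = 0.224). It had been at -5.74 and -3.55 in the E11.5 progenitors (difference 7.68, adjusted p = 0.0051). Thbd, for the anticoagulant receptor thrombomodulin, is in none of the lists and was named after its values were seen. It was at 2.78 and 4.01 against 1.82 and 1.62 (adjusted p = 0.102), and at -6.29 and -6.26 in the E11.5 progenitors (adjusted p = 0.00017). Both genes thus rose in culture while Cdh5 and Tie1 were below background there. Kdr, a VEGF receptor, varied little over the 10 arrays, between 1.86 and 2.99. Mcam, Mylk, Higd1b, Timp4 and Tnxb of the mural and matrix lists were nearly flat on all arrays, and whether those probes report the genes is not known. The 95% intervals of these 6 differences lay within 1 log2 unit, as did those of 4873 of the 21844 genes (22.3%) whose probe was above background on all 4 arrays.

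Vascular growth factors were mostly not called: 2 of 22 members (9.09%) were higher and 4 (18.2%) lower, with a median of -0.34. When 1 array was left out, 0 to 2 were higher and 1 to 3 lower (1 without P0 non-progenitors replicate 1). Vegfa, the main endothelial growth factor, was measured at 3.49 and 2.34 in the 19-day culture and at 2.62 and 3.3 in the P0 non-progenitors, with overlapping ranges. Its difference was -0.05 ± 0.41 (SE, n = 2; adjusted p = 0.956), and its 95% interval lay within 1 log2 unit. Thbs1, for the antiangiogenic matrix protein thrombospondin, was 7.21-fold higher (5.68 and 4.45 against 2.59 and 1.84, adjusted p = 0.0121), but not without 19-day culture replicate 1 or P0 non-progenitors replicate 2 (up to 0.0797). The lymphatic growth factor gene Vegfd was 7.32-fold higher and lost its call without 3 of the 4 arrays, all but 19-day culture replicate 2 (up to 0.0844). With the slide as a term no member of the list was called.

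More mural genes were lower than higher in the 19-day culture. In the pericyte, mural and renin list, 2 of 22 members (9.09%) were higher and 8 (36.4%) lower, with a median of -1.04. Leaving out 1 array left 1 higher and 5 to 7 lower, and the slide term 1 and 3. Ren1, the enzyme that starts the renin-angiotensin cascade, was measured at -2.52 and -2.88 in the 19-day culture and at 4.68 and 4.18 in the P0 non-progenitors. The difference was -7.13 ± 0.57 (adjusted p = 0.000563, or 0.0211 with the slide). Akr1b7, an aldo-keto reductase of renin cells, was at least 93.5-fold lower. Kcnj8, a potassium channel of pericytes, was at least 20.1-fold lower. The connexin gene Gja5, of renin and arterial cells, was 19.7-fold lower (-0.34 and -0.43 against 3.82 and 4.01, adjusted p = 0.00398). Des, for the intermediate filament desmin, was instead higher, at 2.04 and 3.28 against -0.51 and -1.24, or 11.6-fold (adjusted p = 0.00479). Pdgfrb, the receptor by which pericytes are recruited, was at 3.64 and 4.77 in culture and at 3.11 and 3.19 in the P0 non-progenitors (adjusted p = 0.471). It was higher than in the E11.5 progenitors (0.47 and 1.37, adjusted p = 0.037). Rgs5, a pericyte regulator of G protein signalling, was at 1.69 and 1.97 against 4.77 and 5.17 (adjusted p = 0.133).

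Contractile genes showed few calls. Of 18 tested members of the smooth muscle list, 3 (16.7%) were higher and 1 (5.56%) lower, and the median difference was 0.04. The median lay between -0.08 and 0.38 over the alternatives, and no member was called with the slide as a term. With 1 array left out 2 to 4 were higher and 0 to 2 lower. Acta2, smooth muscle actin (chromosome 19, 34316060 to 34316119, mm9), was measured at 4.88 and 2.9 in the 19-day culture and at 5.2 and 4.74 in the P0 non-progenitors, with overlapping ranges (difference -1.08 ± 0.64, adjusted p = 0.331). It was at -2.74 and -3.0 in the E11.5 progenitors, -0.52 and -1.63 in the P0 progenitors and 0.63 and 1.14 in the 8-day culture, all below both 19-day values. Tagln, for the actin-binding protein transgelin, was at 5.72 and 4.04 against 3.61 and 3.32 (adjusted p = 0.131). Cald1, for the actin-binding protein caldesmon, was 3.52-fold higher, at 4.9 and 4.62 against 3.09 and 2.8 (adjusted p = 0.00259). Tpm2, a tropomyosin gene, was 2.06-fold higher (adjusted p = 0.0278) but not without either P0 non-progenitor array (up to 0.127). Synpo2 was 5.76-fold lower, a call kept only without P0 non-progenitors replicate 2. Promoters of the list were searched on both strands for the CArG box, the binding motif of serum response factor, in RefSeq sequences (GRCm38.p6). It was found in 2 of the 17 promoters of 15 members (11.8%), those of Cnn2 and Myl9, against 535 of 32851 promoters (1.63%), and neither gene was called.

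**Figure D3:**
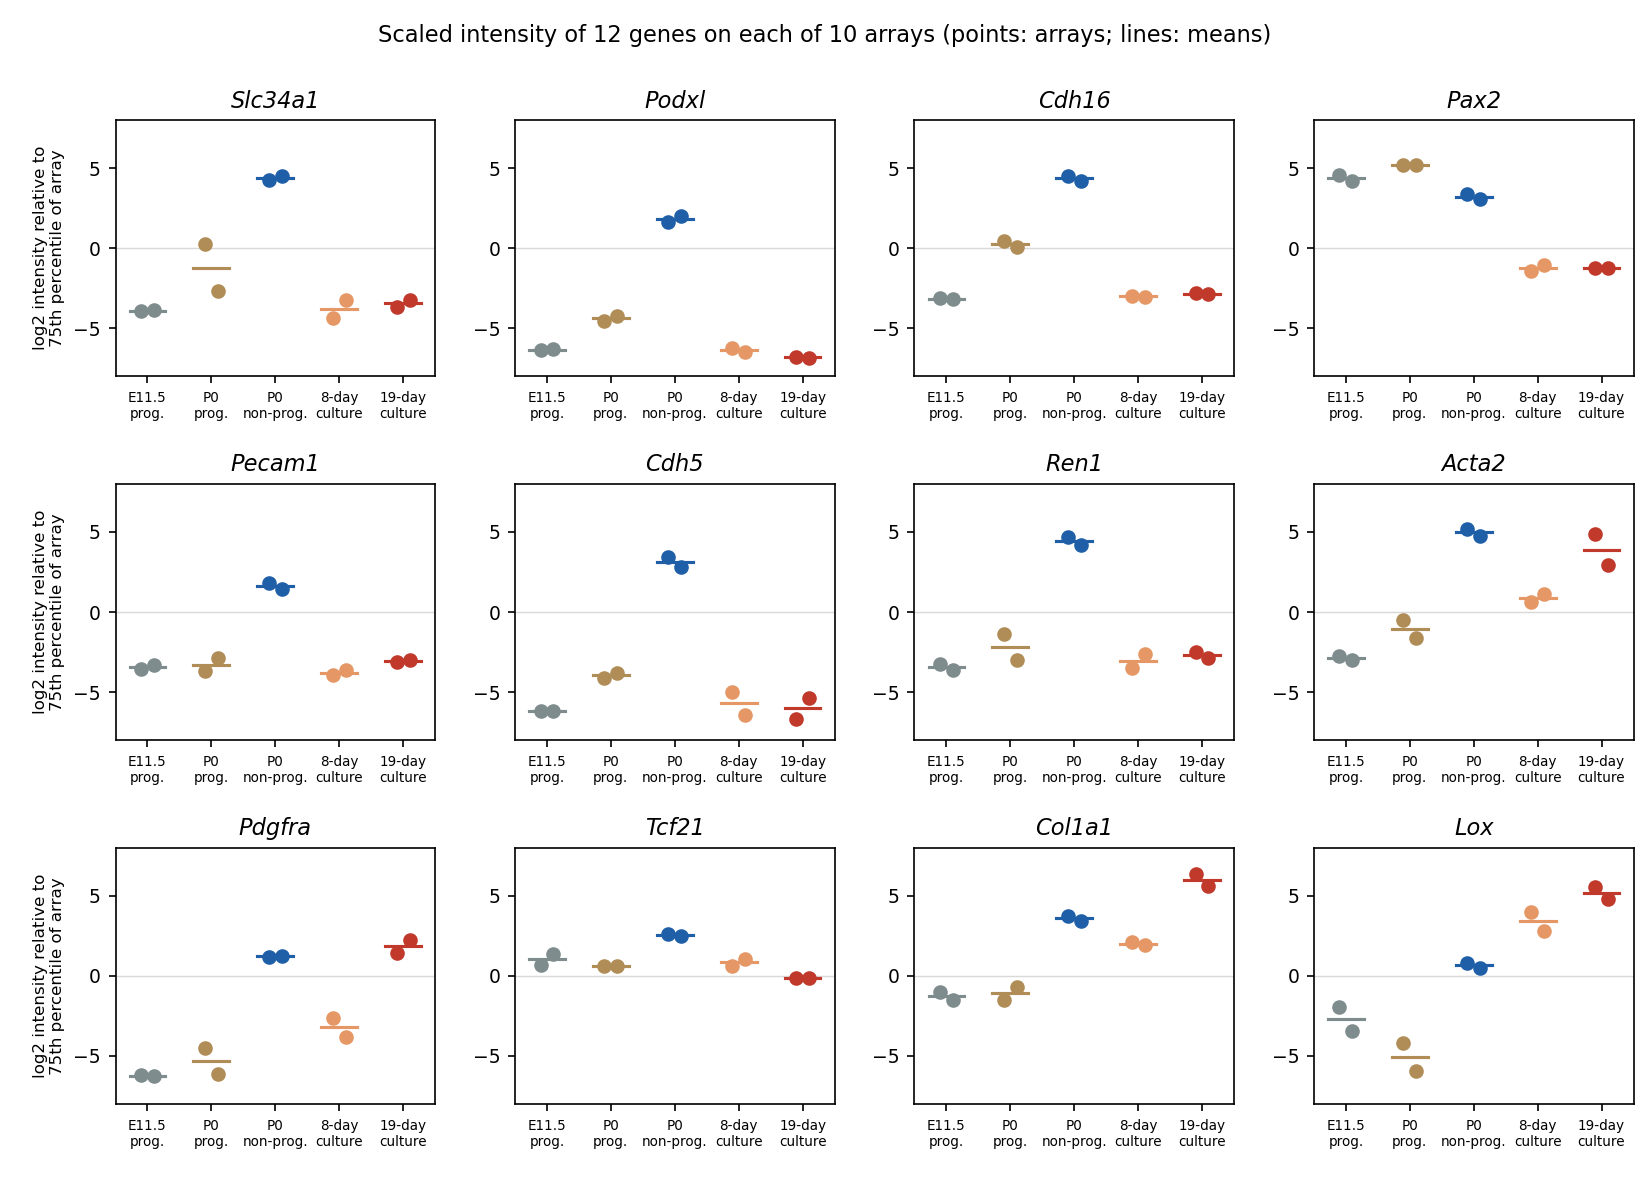
Log2 level relative to the array's 75th percentile of 12 genes on the 10 arrays, by group, 1 point an array. Slc34a1, Podxl, Cdh16, Pecam1, Cdh5 and Ren1 are high in the P0 non-progenitors only, Pax2 is low in both cultures, Acta2, Pdgfra, Col1a1 and Lox are high in the 19-day culture, and Tcf21 lies below the P0 non-progenitors there.

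Stromal genes were called in small numbers on both sides. Of 29 members of the renal stroma list, 2 (6.9%) were higher and 5 (17.2%) lower, with a median of 0.16. In the fits without 1 array, 1 to 2 were higher and 3 to 4 lower, and with the slide 1 and 3. The median was between -0.15 and 0.54 over the alternatives, and the 8-day culture had 2 higher and 13 lower against the same P0 non-progenitor arrays. Pdgfra, a receptor of interstitial fibroblasts (chromosome 5, 75593888 to 75593947, mm9; named after its values were seen), was at 1.41 and 2.27 in the 19-day culture and at 1.16 and 1.26 in the P0 non-progenitors (difference 0.63 ± 0.64, adjusted p = 0.575). In the E11.5 progenitors it was at -6.17 and -6.28, in the P0 progenitors at -4.48 and -6.15, and in the 8-day culture at -2.64 and -3.8, so the 4 arrays compared were the high ones of the series. The same pattern was seen in 3 further genes named after their values were seen, of which Agtr2 is in none of the lists. Agtr2, the type 2 angiotensin receptor of fetal mesenchyme, was at 1.84 and 2.2 against 0.93 and 0.79 (adjusted p = 0.0753), and between -6.58 and -6.27 on the other 6 arrays. Tbx2, a T-box repressor of mesenchyme, was at -0.41 and -0.57 against -0.06 and -0.27 (adjusted p = 0.604), and between -6.15 and -5.64 elsewhere. Dcn, for the small proteoglycan decorin, was at 2.66 and 2.04 against 1.81 and 1.74 (adjusted p = 0.835), and between -6.35 and -0.03 elsewhere. A p above the threshold does not show that the groups were equal: the 95% intervals of all 4 of these genes reached beyond 1 log2 unit. Over the whole renal stroma list, 15 differences were positive and 14 negative. Some members rose from the E11.5 progenitors and lay lower than the P0 non-progenitors without a call. Named after their values were seen, they include Penk (-3.355, adjusted p = 0.059), Lum (-1.381, 0.1213) and Smoc2 (-1.275, 0.07424). Sfrp1 also rose and lay at a difference of 0.384 (0.6414).

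Other stromal genes were lower. Tcf21, a factor of stroma and podocytes, was at -0.12 and -0.15 in the 19-day culture and at 2.63 and 2.51 in the P0 non-progenitors, 6.51-fold lower (difference -2.7 ± 0.29, adjusted p = 0.00188). Alx1, a homeobox gene of mesenchyme, was at least 46.0-fold lower. Foxd1, the founding factor of the cortical stroma, was named after its values were seen and did not pass (-2.0 and -4.87 against 1.2 and 1.55, difference -4.81 ± 1.25, adjusted p = 0.0549). It had been at 3.83 and 3.2 in the E11.5 progenitors, and it was lower than that in the 19-day culture (adjusted p = 0.0098). The genes of retinoic acid synthesis in the renal stroma list were opposed, and which cells of the mixed GFP-negative sort expressed them was not tested. Aldh1a3 was 36.7-fold lower (adjusted p = 0.000606), and Aldh1a2 4.98-fold higher, at 4.88 and 5.3 against 2.87 and 2.68 (adjusted p = 0.00179, or 0.0187 with the slide). Aldh1a2 lay at 4.34 and 4.73 in the E11.5 progenitors. Among 32 tested stromal transcription factors, 4 (12.5%) were higher and 4 (12.5%) lower, and 1 was called with the slide as a term. When 1 array was left out, 1 to 2 were higher and 2 to 4 lower, and only without 19-day culture replicate 1 were 4 still lower. Prrx1, a factor of limb and craniofacial mesenchyme, was higher (1.88 and 2.17 against -1.62 and -5.14, the latter above background on 1 of 2 arrays; adjusted p = 0.0161), but not without either 19-day array (up to 0.0727).

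Extracellular matrix lists differed in their balance: collagens, glycoproteins, collagen-processing enzymes and proteases had more members higher than lower in the 19-day culture, and integrins and laminins more lower. Of 23 collagens, 8 (34.8%) were higher, against 4.4% of all genes, and 1 (4.35%) was lower, with a median of 1.48. The difference was positive in 14 and negative in 9. Over the alternatives the median ran from 0.52, with the mean of a gene's probes, to 1.585, and it was 0.765 with the slide. With 1 array left out 1 to 5 were higher and 1 to 3 lower (1 and 1 without P0 non-progenitors replicate 2), and with the slide as a term none was higher and 1 lower. The values are therefore given in full for the main fibrillar chains. Col1a1 (chromosome 11, 94813115 to 94813174, mm9) was at 6.37 and 5.64 in the 19-day culture, 3.77 and 3.44 in the P0 non-progenitors, 2.1 and 1.9 in the 8-day culture and -1.0 and -1.51 in the E11.5 progenitors. Both 19-day arrays lay above all 8 others, and the difference from the P0 non-progenitors was 2.4 ± 0.36, or 5.28-fold (adjusted p = 0.00788, 0.0597 without P0 non-progenitors replicate 2 and 0.119 with the slide). Col3a1 was at 6.5 and 6.06 against 4.61 and 4.96, 2.82-fold higher (adjusted p = 0.0334), and it was not called when any 1 of the 4 arrays was left out (up to 0.17). Col1a2 did not pass, at 7.58 and 7.12 against 5.81 and 5.94 (adjusted p = 0.114). The basement membrane chain Col4a2 was at 3.7 and 3.86 against 3.61 and 4.0, a difference of -0.02 ± 0.19 whose interval lay within 1 log2 unit. It had risen from 0.21 and 0.36 in the E11.5 progenitors (difference 3.5, adjusted p = 0.00014). Col2a1, of cartilage, was at least 7.77-fold lower.

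Among matrix glycoproteins and proteoglycans, 7 of 31 tested members (22.6%) were higher and 3 (9.68%) lower, with a median of 0.57. Between 2 and 6 were called higher and 0 to 4 lower with 1 array left out, and 3 and 0 with the slide. Bgn, for the proteoglycan biglycan, was at 5.92 and 5.44 against 2.92 and 2.77, 7.15-fold higher (adjusted p = 0.00294). Sparc, a collagen-binding glycoprotein named after its values were seen, was 3.09-fold higher, at 7.16 and 6.96 against 5.5 and 5.35 (adjusted p = 0.00357, or 0.0303 with the slide). Fn1, for fibronectin and named in the same way, was 3.72-fold higher (7.43 and 7.03 against 5.39 and 5.29, adjusted p = 0.0341), but not when any 1 of the 4 arrays was left out (up to 0.161). Elastic fibre genes differed from these. Eln, for elastin, was lower, at -3.36 and -6.69 against 2.26 and 1.91, with only the first of the 19-day values above background (adjusted p = 0.012, up to 0.0746 without either P0 non-progenitor array). Fbln5, for the elastic fibre protein fibulin-5 and named after its values were seen, was not called, at 1.35 and 2.46 against 2.21 and 1.89 (adjusted p = 0.955).

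The enzymes that hydroxylate and cross-link collagen were higher as well. Of 20 tested members, 10 (50%) were higher and none was lower, with a median of 2.11. In the fits without 1 array, 4 to 6 were called, and with the slide 4. P4ha3, a prolyl hydroxylase subunit, was at 4.43 and 3.65 in the 19-day culture and at -1.02 and -1.07 in the P0 non-progenitors, 33.9-fold higher (adjusted p = 0.000571). Plod2, the lysyl hydroxylase of collagen telopeptides, was at 4.39 and 3.91 against 0.81 and 0.63, 10.8-fold higher (adjusted p = 0.000893, or 0.0225 with the slide). Lox, lysyl oxidase, was at 5.53 and 4.78 against 0.79 and 0.51, 22.7-fold higher (adjusted p = 0.0104). The Lox call was kept only without 19-day culture replicate 2 (up to 0.0687 otherwise). The P0 non-progenitors did not stand above the P0 progenitors in this list as they did in collagens. The median of P0 non-progenitors minus P0 progenitors was 0.07 for the processing enzymes and 1.69 for the collagens, while that of the 19-day culture minus E11.5 progenitors was 2.94 and 4.08.

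Matrix proteases included Mmp3, whose bound was the highest among genes with an ordinary symbol that were higher in culture. Of 24 members, 8 (33.3%) were higher and none lower, with 6 left without any 1 array and 3 with the slide, and 5 were above background in the 19-day culture only. This gene, for stromelysin 1, was at 5.16 and 5.39 in the 19-day culture and at -6.08 and -6.62 in the P0 non-progenitors, at least 1548-fold higher (adjusted p = 0.00306). Mmp10 was at least 230.4-fold higher, Mmp12 at least 98.7-fold and Mmp19 at least 26.4-fold. Timp1, which inhibits these enzymes, led the rises among genes measured on all 4 arrays, at 3.61 and 1.71 against -2.75 and -3.96, 64.5-fold (adjusted p = 0.00563, or 0.07 with the slide). The urokinase gene Plau was at 3.91 and 5.01 against 5.46 and 5.38 and was not called (adjusted p = 0.393). Receptors and basement membrane laminins showed the opposite balance, with 1 of 24 tested members (4.17%) higher and 7 (29.2%) lower. When 1 array was left out, none was higher and 3 to 7 were lower (3 without P0 non-progenitors replicate 1), and with the slide 1 was higher and 2 lower. The epithelial integrin gene Itgb6 was at least 28.1-fold lower. Itgb1, the common partner of matrix integrins, was at 2.9 and 3.21 against 3.0 and 2.9, with an interval within 1 log2 unit.

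**Figure D4:**
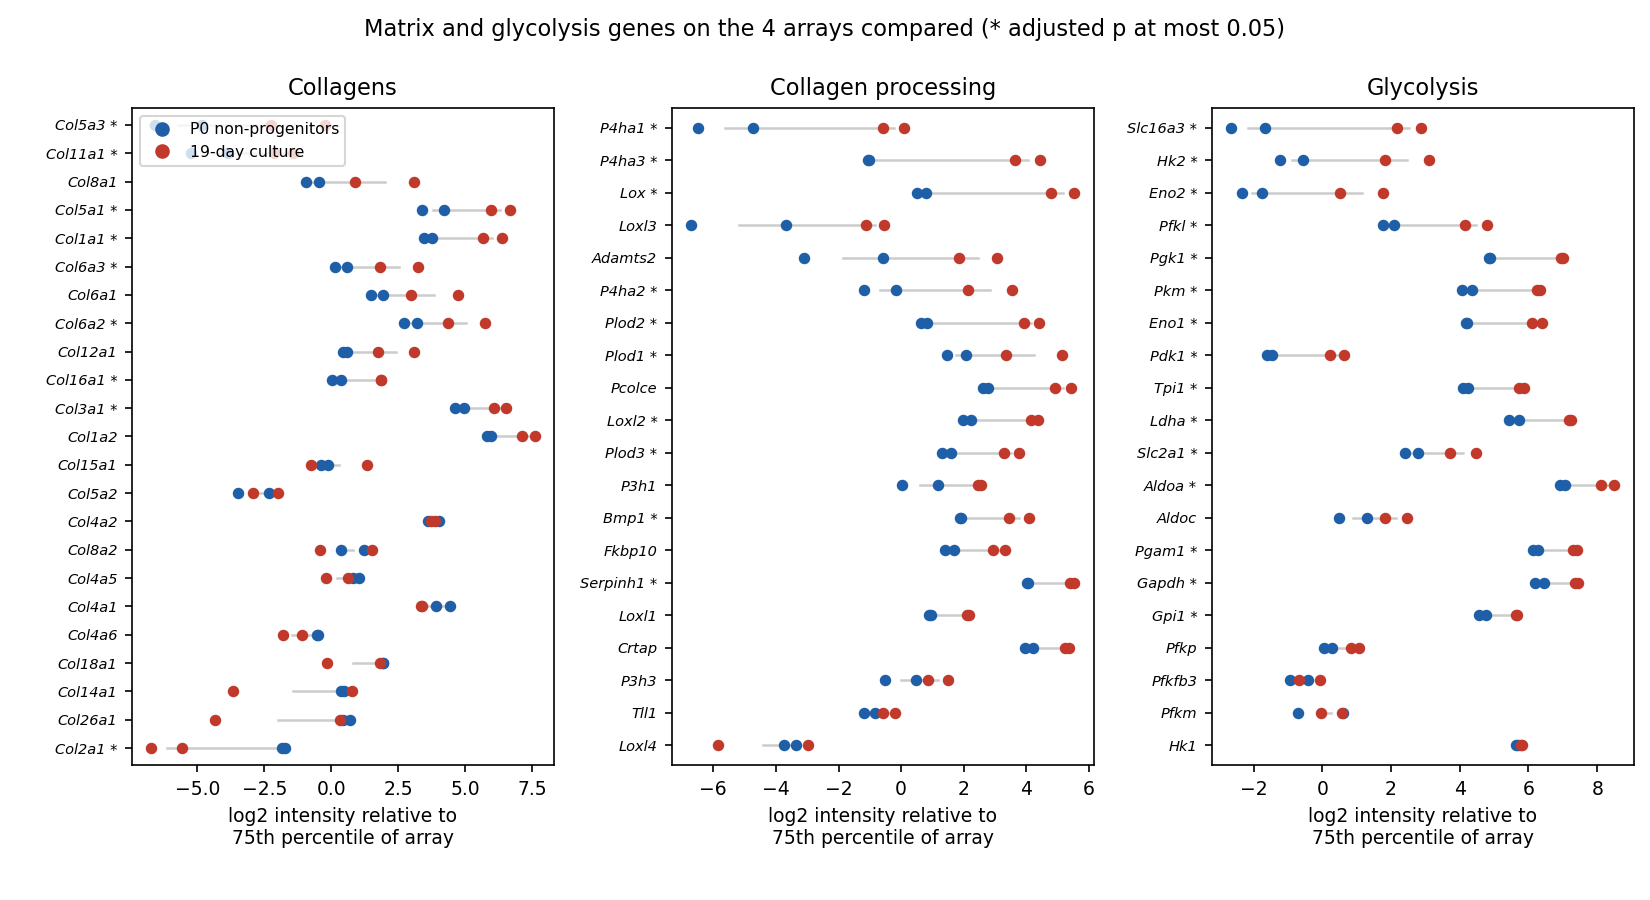
Log2 levels of the collagens, the collagen processing enzymes and the glycolysis genes on the 2 P0 non-progenitor and 2 19-day arrays, sorted by difference; an asterisk marks genes called at an adjusted p of at most 0.05. In glycolysis all 20 genes have a positive difference and 15 are called, in collagen processing 10 of 20 and in collagens 8 of 23 are called higher.

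To ask what the culture gained from its own start, without a control shared with the newborn comparison, genes higher in P0 non-progenitors than in P0 progenitors were set beside the change from E11.5 progenitors to the 19-day culture. Of 1094 genes (4.17%) higher in the P0 non-progenitors, 311 (28.4%) were also higher in the 19-day culture than in its start, and 35 (3.2%) were lower. The 311 were 16.4% of the 1899 genes (7.23%) that rose in culture, and the 35 were 1.39% of the 2520 (9.6%) that fell. Of 1115 genes (4.25%) lower in the P0 non-progenitors, 544 (48.8%) were lower in the 19-day culture, 21.6% of those that fell, and 26 (2.33%) were higher, 1.37% of those that rose. Among the genes shared in the rise, 275 carry an ordinary symbol. Of these, 202 were not called between the 19-day culture and the P0 non-progenitors, 49 were higher in culture and 24 lower. The 2 comparisons share no array, but they came from 1 fit and share the estimate of the spread of each gene. Their calls are therefore not independent, and the overlap was not tested. Fitted on the 4 arrays of each comparison alone, the shared rise was 14.4% in place of 28.4%, and with the slide as a term it was 20.3%.

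The lists differed along these 2 axes. Of all genes tested, 311 (1.18%) were higher along both. List shares set beside this are descriptive, because the lists were chosen with earlier results of these data known. Among stromal and matrix lists these were 9 of 29 renal stroma members (31%), 11 of 23 collagens (47.8%), 10 of 31 glycoproteins (32.3%) and 5 of 18 smooth muscle genes (27.8%). The other lists of this kind had fewer: 2 of 32 stromal transcription factors (6.25%), 1 of 20 collagen-processing enzymes (5%), 3 of 24 matrix proteases (12.5%) and 2 of 24 integrins and laminins (8.33%). Some genes are counted in 2 of these lists, such as Acta2, Col3a1 and Lum. A high share was not limited to stroma and matrix, with 8 of 19 metallothionein and S100 genes (42.1%) and 5 of 22 vascular growth factors (22.7%). The share was 3 of 29 endothelial genes (10.3%) and 2 of 22 pericyte, mural and renin genes (9.09%). It was 0 of 18 endothelial transcription factors. Tubule genes were higher along the first. In the proximal tubule list 18 members were higher in P0 non-progenitors than in P0 progenitors and none was higher in the 19-day culture than in the E11.5 progenitors, and the list medians were 4.35 and 0.07. In the endothelial list 19 and 3 members were higher, with medians of 4.04 and 0.62. Progenitor genes were lower along both, with medians of -1.8 and -2.69, 12 members being lower in P0 non-progenitors and 17 in the 19-day culture.

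**Figure D5:**
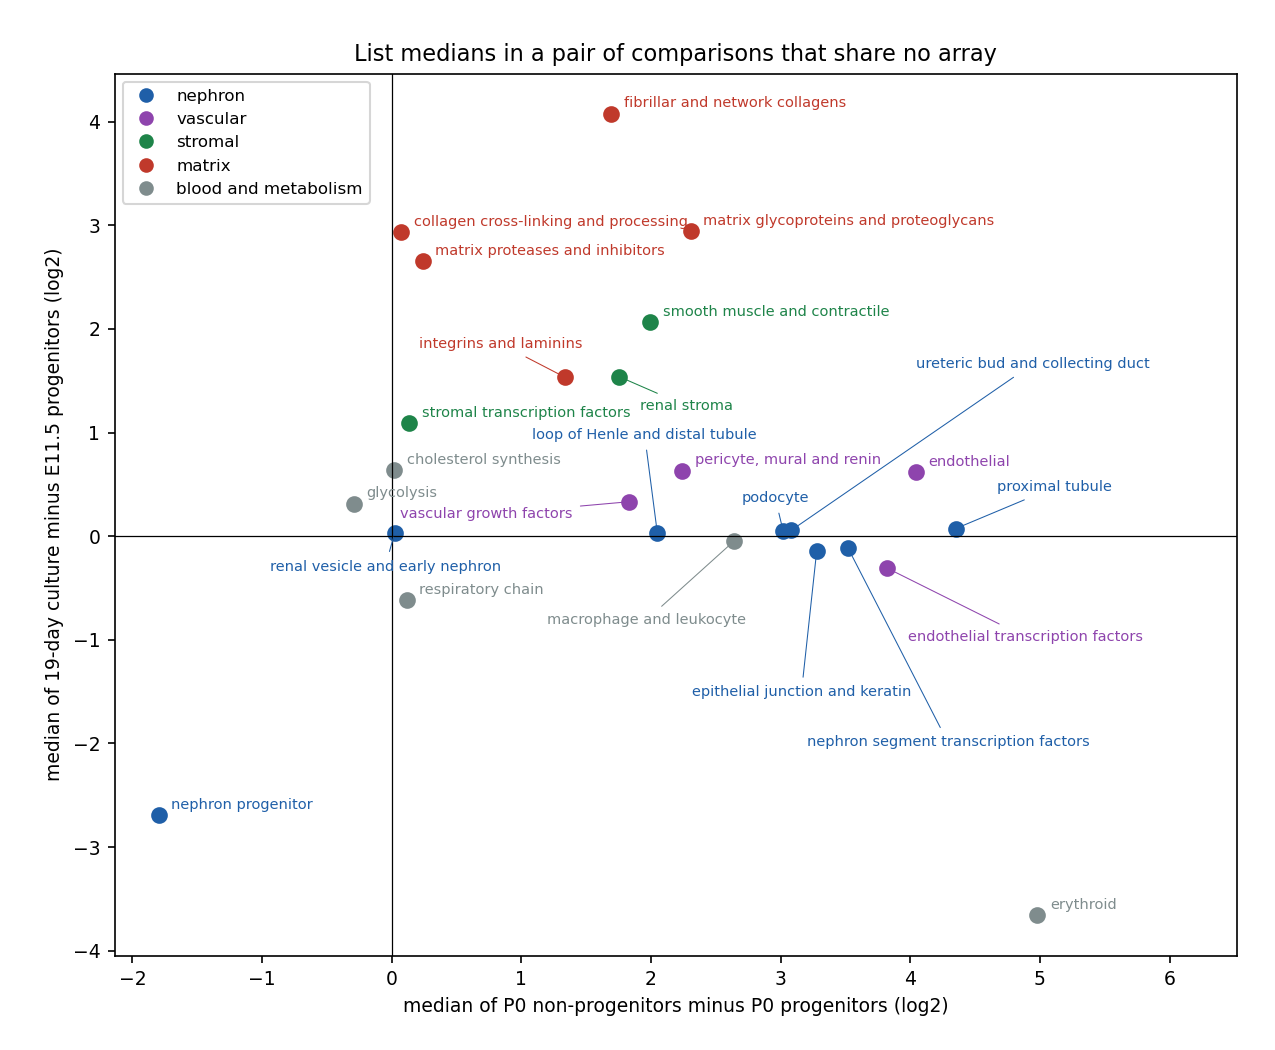
Median difference in log2 level of each gene list, P0 non-progenitors minus P0 progenitors on the horizontal axis and 19-day culture minus E11.5 progenitors on the vertical axis, 2 comparisons that share no array. Collagens lie at 1.69 and 4.08, proximal tubule genes at 4.35 and 0.07, and nephron progenitor genes at -1.8 and -2.69.

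Genes of energy metabolism differed between the groups. In glycolysis, 15 of 20 members (75%) were higher and none lower, all 20 had a positive difference, and the median was 1.55. With 1 array left out 11 to 14 were called, and with the slide 9. Pgk1, phosphoglycerate kinase, was at 7.0 and 6.94 in the 19-day culture and at 4.89 and 4.87 in the P0 non-progenitors, 4.25-fold higher (difference 2.09 ± 0.12, adjusted p = 0.000204, or 0.0134 with the slide). Ldha, lactate dehydrogenase, was named after its values were seen and was 3.07-fold higher, at 7.18 and 7.24 against 5.74 and 5.45 (adjusted p = 0.000337). Slc16a3, an exporter of lactate, was 25.9-fold higher, Hk2, hexokinase 2, 10.3-fold and Pfkl 5.81-fold. Hk1 was not called, at 5.8 and 5.78 against 5.64 and 5.7. Ldha stood at 7.21 and 7.2 in the E11.5 progenitors, a difference of 0.00 from the 19-day culture (adjusted p = 0.99), and Pgk1 at 6.36 and 6.29. For both genes all 4 arrays of the P0 groups lay below all E11.5 and culture arrays. In the 8-day culture 18 of the 20 genes were higher than in the same P0 non-progenitor arrays.

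In cholesterol synthesis, 13 of 21 members (61.9%) were higher and none lower, all 21 had a positive difference, and the median was 1.2. These calls depended on the arrays, with 3 to 5 left when 1 was left out and 1 with the slide. The synthase gene Hmgcs1 was at 4.45 and 4.22 against 4.22 and 4.44 (adjusted p = 0.996). The respiratory chain moved the other way. All of its 27 members had a negative difference, 9 (33.3%) were called lower, and the median was -0.64. The called genes changed little in size, from 1.93-fold for Uqcrfs1 (4.11 and 4.18 against 5.17 and 5.02, adjusted p = 0.00283) to 2.5-fold for Uqcrc1 among the 5 named by rule. In the fits without 1 array, 2 to 5 were called, and with the slide 1. DNA replication and mitosis genes, with 2 of 25 and 1 of 25 called lower (8% and 4%), had medians of -0.60 and -0.75. Without 19-day culture replicate 2, 8 and 7 were called lower, and without any other of the 4 arrays 1 and 0. The mitosis median was -0.19 without 19-day culture replicate 1, and with the slide no member of either list was called.

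Genes of blood cells were measured at high levels in the GFP-negative sort. In the erythroid list 7 of 11 tested members were lower (63.6%), with a median of -5.79, and 5 to 6 with 1 array left out and 4 with the slide. Hba-a1, an adult globin gene, was at -1.52 and -0.31 in the 19-day culture and at 9.27 and 9.0 in the P0 non-progenitors. Hbb-b1 was at least 1806-fold lower. In the macrophage and leukocyte list 10 of 24 (41.7%) were lower and none higher, and 4 to 6 with 1 array left out and 3 with the slide. The median of that list was -2.0, but -0.453 under the strict filter. S100a9, of neutrophils and monocytes, was at least 299-fold lower and Tyrobp, a signalling adaptor of myeloid cells, was at -4.5 and -5.38 against 3.58 and 3.23, above background on 1 of the 2 19-day arrays (adjusted p = 0.000674). The median level of the macrophage list was -3.84 and -3.54 in the 19-day culture and -0.14 and -0.18 in the P0 non-progenitors, and that of the erythroid list -4.42 and -4.39 against 3.51 and 3.23. In the GFP-positive E11.5 progenitors the erythroid level was 1.04 and -1.874. Against these, 6 erythroid members were lower in the 19-day culture and none higher. Blood cell lists were thus low in the 19-day culture along with the nephron and endothelial lists. The part of blood cells in those differences was not tested.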

How the data were processed

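The values deposited by the authors are intensities. Per the file headers, Agilent Feature Extraction (version 11.5.1.1) subtracted background and detrended each array, with no normalization between arrays. Per the labels' protocols, sorted cells gave RNA that was amplified (Ovation Pico WTA) and carried a Cy3 label. The labels give the birth stage as P0 and were followed, although file titles say E19.5. The array of P0 progenitors replicate 2 was re-saved with fewer digits and altered gene names, so names came from a 19-day array of the same design.

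Log2 intensities of 59305 spots without controls were reduced by the array's 75th percentile, with outlier spots missing and no pseudocount. They gave 55681 probes, 28347 of them named by RefSeq accession, 3193 by symbol, 272 by synonym and 23869 by the file's name. A gene was its probe with the highest mean, and 26250 of 34601 names passed the filter, a probe well above background on both arrays of 1 or more groups. Bounds set the undetected group, array by array, at the lowest signal counted as well above background, or at its own value where higher. The comparison used limma 3.58.1 (R 4.3.3, with data.table of version 1.17.8), with a mean per group over all 10 arrays, with an intensity trend, 5 residual degrees of freedom and Benjamini-Hochberg adjustment at 0.05, 2-sided. Of the genes tested, 6 had 1 array missing. The procedure was tested on simulated data. Figures used matplotlib 3.10.9 in Python 3.11.15.

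The members and the 36 gene lists were chosen with earlier results of these data known. Genes were named by rule: the 12 largest rises and 12 largest falls above background on all 4 arrays with separate groups, the 8 highest bounds each way, up to 5 called and 4 uncalled members of each list, stromal and vascular members with an interval within 1 log2 unit, and Six2 and Cited1. Others are said to be named after their values were seen. A second planned motif search, in promoters of the proximal tubule list, is not reported here. Alternatives were quantile normalization, normexp background (offset 50), other filters, a floor, the mean of a gene's probes, other moderation, replicate or slide terms, the compared groups alone, a threshold of 1 log2 unit, and leaving out each array.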

Additional observations from a re-analysis of the deposited data

Results flagged for a closer look

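The differences of the 2 cultures from the P0 non-progenitors share the P0 non-progenitor arrays, and the test of 19-day against 8-day culture in the same limma fit is the test between them. Of the 40 genes named for the largest rises, falls and bounds, 9 passed this test, against 2.68% of all genes called higher and 5.41% lower. They were chosen for their 19-day values, which this test shares, so nothing is read from that count. Ctla2b, a cathepsin inhibitor homologue, moved in opposite directions: it was lower than the P0 non-progenitors at 8 days (-4.09, adjusted p = 0.01334) and higher at 19 days (5.11), a difference of 9.20 (adjusted p = 0.001961). The stromelysin gene Mmp3 differed by 8.02 (adjusted p = 0.01529), having been at -0.11 and -5.38 on the 8-day arrays. The protease inhibitor gene A2m differed by 5.96 (adjusted p = 0.01129). Cdkn2a, whose products restrain the cell cycle, differed by 5.26 (adjusted p = 0.002829), with 2.38 and 1.86 at 19 days against -2.57 and -3.70 at 8 days. Osmr, the oncostatin M receptor, differed by 5.35 (adjusted p = 0.03142), the guanine deaminase gene Gda by 5.36 (adjusted p = 0.034) and the heparan sulfatase gene Sulf1 by 4.36 (adjusted p = 0.02012). Il33, an alarmin cytokine gene, was higher than in the P0 non-progenitors at both times, by 3.30 and 5.16, and the times differed by 1.87 (adjusted p = 0.04925). Smim22, for a small membrane protein, was lower at both times, by -2.88 and -6.87, a difference of -3.99 (adjusted p = 0.01337).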

How the results depend on the processing

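The count of 2468 called genes fell to 1514 (583 lower) with only probes above background on all arrays, to 547 (218 higher and 329 lower) with the slide as a term, to 1470 (521 higher) when only the compared groups were fitted, and to 682 (136 higher and 546 lower) against a threshold of 1 log2 unit. Leaving out 1 of the 4 arrays compared gave 1008 to 1708 called, 369 to 649 higher and 635 to 1059 lower, and leaving out 1 array of the E11.5 or P0 progenitors 1820 to 2556, 734 to 1153 higher and 1086 to 1403 lower. Of the genes higher in P0 non-progenitors than in P0 progenitors, the share that rose in culture was 14.4% with each comparison fitted alone and 20.3% with the slide. That share was 37.3% with only probes above background on all arrays, and 26.6% to 30.1% with 1 of these 8 arrays left out. The share that fell, 3.2%, became 5.01% with normexp, 1.11% with the slide, 0.634% fitted alone and 1.66% to 3.99% with 1 of the 8 left out. The cause of these changes was not tested. Fewer genes were tested under the stricter filter. Fewer arrays were used when only the compared groups were fitted and when 1 array was left out. How far these smaller numbers account for the changes was not tested either. No shared pattern by replicate number was seen: correlations of same-numbered deviations ran from -0.014 to 0.027, and the fit with a replicate block called 2148 genes. With 2 arrays a group, these values cannot show if the samples were paired by litter or culture. All 192 called genes that were named kept their sign in every alternative, 112 kept their call without each single array and 25 lost it without any one of the 4. Of 36 list medians, 29 kept their sign. The exceptions ranged from -0.08 to 0.38 for smooth muscle, -0.15 to 0.54 for renal stroma, -0.05 to 0.35 for Hox genes, -0.07 (with the slide) to 0.56 for skeletal muscle, -0.28 to 1.32 (with the slide) for immediate early genes and -0.45 (with the slide) to 0.31 for imprinted genes, and the median of endothelial transcription factors was 0.54 under the strict filter. The median of all genes, 0.21, was 0.08 with normexp and 0.06 with the slide. Dim genes are limited by background, and folds of genes undetected in 1 group are bounds.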

Other observations

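Calls were also made in groups outside the kidney programs. Among chemokines and cytokines, 6 of 25 tested members (24%) were higher and 1 (4%) lower in the 19-day culture, with a median of 0.88 (0.73 with bounds). When 1 array was left out, 1 to 5 were higher (1 without P0 non-progenitors replicate 1) and 0 to 2 lower, and with the slide 3 and 0. Il33 was at 5.47 and 4.39 against 0.10 and -0.56, 35.8-fold higher (adjusted p = 0.000854). The neutrophil attractant gene Cxcl5 was at 7.65 and 3.79 against -4.99 and -3.08 (adjusted p = 0.012), but it was not called without 19-day culture replicate 1 or P0 non-progenitors replicate 1 (up to 0.0817). In the metallothionein and S100 list, 5 of 19 (26.3%) were higher and 1 (5.26%) lower. Without any 1 of the 4 arrays, and with the slide, 2 were higher and none lower. Lgals1, for the lectin galectin-1, was 5.84-fold higher at 7.05 and 7.19 against 4.56 and 4.59 (adjusted p = 6.37e-05, or 0.00644 with the slide), and Anxa1, for annexin A1, 9.04-fold (adjusted p = 0.00347).

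Cdkn2a was above background only in the 19-day culture, at least 109-fold higher than in the P0 non-progenitors. Gdf6, a bone morphogenetic protein family ligand, was at least 223-fold and Mgarp, a mitochondrial protein gene, at least 372-fold higher. Hmga2, a chromatin protein of fetal and growing cells, was at 2.71 and 2.77 against -0.66 and -0.27, 9.2-fold higher (adjusted p = 0.000563), while it had fallen from the level of the E11.5 progenitors (difference -2.09, adjusted p = 0.0024). Of 19 imprinted and fetal growth genes, 1 (5.26%) was higher and 3 (15.8%) lower, among them Igf2 (1.67 and 2.46 against 4.25 and 3.81, adjusted p = 0.00473). With 1 array left out 1 to 2 of these growth genes were higher and 1 to 4 lower. Of 15 tested posterior Hox genes, 3 (20%) were higher and 2 (13.3%) lower, with 0 to 1 and 0 to 2 left without 1 array and none with the slide. Hoxa10, at 3.25 and 2.88 against 2.92 and 2.75, was not called (adjusted p = 0.482).

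Calls in the other lists stand beside the 4.4% of all genes called higher and 5% called lower. Of 12 neural and Schwann genes, 2 (16.7%) were higher and 1 (8.33%) lower. Of 18 skeletal muscle genes 1 (5.56%) was higher, and of 19 fatty acid oxidation genes 1 (5.26%) was lower. Of 22 immediate early and stress genes, 1 (4.55%) was higher and 2 (9.09%) lower. Of 20 housekeeping genes, 3 (15%) were higher. In the fits without 1 array, each of these counts lay between 0 and 3.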
